A study of Arabidopsis thaliana with 7 samples.

Results

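AT3G28220 and AT4G01390 are 2 nuclear genes of Arabidopsis thaliana that encode proteins with a TRAF-like domain, also called a MATH domain. They are 2 of the 13350 genes that have a probe set with a single gene name, among 22746 probe sets in all. Each is read by 1 probe set, 256577_at for AT3G28220 on chromosome 3 and 255621_at for AT4G01390 on chromosome 4. Both were picked because their signal was low in soc1-101D seedlings, and AT3G28220 was also known to lie above Col on the soc1-2 array. Their differences between genotypes are therefore given as a description with no test.

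The samples were whole seedlings taken 7 days after germination and grown at 21 °C with 16 h of light and 8 h of dark. The 3 genotypes were measured on 7 arrays, 1 array per sample. The soc1-101D group (3 arrays) carried a gain-of-function allele of SOC1, a MADS-box gene that promotes flowering, and flowered early. The soc1-2 group (1 array) carried a knock-out allele of SOC1 and flowered late. The Col group (3 arrays) was the Columbia wild type at the vegetative stage, and the labels give Col as the basal strain of both mutants. Experiments 1, 2 and 3 each held a soc1-101D array and a Col array, and the soc1-2 array belonged to experiment 3.

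The TRAF domain takes its name from the TNF receptor-associated factors of animals, where it binds short peptides of receptors and other partners. Plants have many genes with this domain and use it mainly as a protein-binding module. In Arabidopsis, MATH-BTB proteins carry substrates to cullin ubiquitin ligases, SINA-type proteins pair the domain with a RING ligase domain, and the MUSE proteins act in the turnover of immune receptors. What AT3G28220 and AT4G01390 bind is not stated in the labels.

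Deposited intensities had medians of 178.75 to 206.8 over the 7 arrays, and every array was scaled to a common median of 192.7. These values are called scaled signal here. Logarithms were taken after a pseudocount of 19.3 was added, so a fold change on that scale understates the change of dim genes. Green-tissue genes were bright on all arrays (RCA at 21958 to 30387, LHCB4.1 at 23636 to 37971 and LHCB4.2 at 9420 to 29107). LHCB4.2 varied between experiments, with 18405, 29107 and 9560 in Col of experiments 1, 2 and 3. In soc1-101D it read 19836, 27212 and 13220. The root gene PYK10 was bright too (13114 to 22022). The other root genes tested were dimmer, EXPA7 at 127 to 249 and EXPA18 at 268 to 709. In experiment 2 their log2 differences of soc1-101D from Col were −0.65 and −0.79, against 0.70 and 0.18 in experiment 1 and 0.14 and 0.19 in experiment 3. PYK10 did not share this order, with −0.32, −0.001 and −0.04 in experiments 1, 2 and 3. The part of these green-tissue and root genes in the results below was not tested. No flower or seed storage marker of the lists had a probe set with a single gene name, and none was paired with SOC1, so the genotypes rest on the labels. The labels do not tell whether the experiments came from separate sowings. A p-value here thus reflects the spread among these arrays, part of which may be technical.

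AT3G28220 was low in soc1-101D in each experiment. It read 572, 346 and 75.2 units of scaled signal in soc1-101D of experiments 1, 2 and 3, against 3463, 3283 and 430 in Col of the same experiments. Every soc1-101D array was below the Col array beside it, as for 18.3% of the probe sets tested, and nothing is read from this count, since the gene was chosen on this contrast. Even so, the groups overlapped across experiments, because soc1-101D of experiment 1 read above Col of experiment 3. Within an experiment the log2 difference of soc1-101D from Col was −2.56, −3.18 and −2.25. The mean was −2.66 with an SD of 0.47 over the 3 experiments, which corresponds to a 6.33-fold lower signal. Its place from the bottom of all 13648 probe sets tested was 5 in experiment 1, 4 in experiment 2 and 7 in experiment 3.

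AT4G01390 was dimmer in soc1-101D than in Col in each experiment too, with a wider spread. It read 38.9, 252 and 7.65 units of scaled signal in soc1-101D of experiments 1, 2 and 3, against 484, 937 and 328 in Col. The highest soc1-101D array stayed below the lowest Col array, so the groups did not overlap. Such a separation was seen for 2.42% of the probe sets tested, and since the gene was chosen on this contrast nothing is read from it. The log2 differences were −3.11, −1.82 and −3.69, with a mean of −2.87 and an SD of 0.96. The soc1-101D signal of experiment 3 lay below the pseudocount, so the size of that difference depends on it. As a plain ratio of scaled signals, Col stood 12.5, 3.72 and 42.9 times above soc1-101D in experiments 1, 2 and 3.

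**Figure D1:**
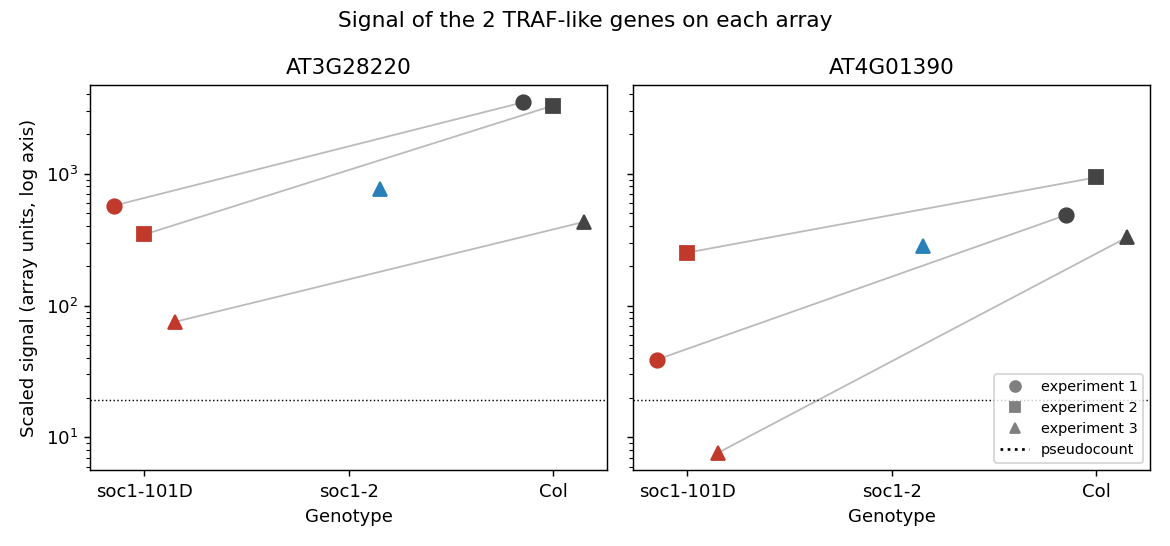
Scaled signal (log axis, array units) of AT3G28220 (left) and AT4G01390 (right) on each of the 7 arrays, by genotype; the marker shape gives the experiment, grey lines join soc1-101D and Col of 1 experiment, and the dotted line is the pseudocount of 19.3. All 3 lines of both genes rise toward Col, and AT4G01390 in soc1-101D of experiment 3 (7.65) lies under the dotted line.

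The size of the soc1-101D difference varied in opposite ways in the 2 genes. AT3G28220 had its widest difference in experiment 2, where AT4G01390 had its narrowest. AT4G01390 held place 2 and place 3 from the bottom of all probe sets tested in experiments 1 and 3, and place 29 in experiment 2. In the model fitted across all probe sets (limma, with genotype and experiment as terms), 37 probe sets fell in soc1-101D, which is 0.271% of those tested. That both genes are among them follows from how they were chosen, and nothing is read from it. Without the experiment block limma called 0 probe sets in soc1-101D (222 at an unadjusted p under 0.05), and 0 as well when dim probe sets were kept (1714 unadjusted). With 4 times the pseudocount the mean log2 difference of AT4G01390 was −2.05, against −3.16 with 0.5 times the pseudocount. For AT3G28220 the same settings gave −2.39 and −2.72. RNA came from whole seedlings, so fewer cells with the transcript and less transcript per cell cannot be told apart.

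On the soc1-2 array the 2 genes stood apart from each other. AT3G28220 read 761 in soc1-2, against 430 in Col of experiment 3, a log2 difference of 0.80. That is 1.77 times the Col signal, and 167 of the 13648 probe sets (1.22%) had a difference at least as high. AT4G01390 read 285 in soc1-2, against 328 in Col of experiment 3, a log2 difference of −0.19. AT3G28220 was among the 2.73% of probe sets that read at least 1.5 times Col on this scale. Nothing is read from its place, since it was known to lie above Col on this array when it was chosen. Neither gene reached a 2-fold difference, as 0.674% of the probe sets tested did upward and 0.139% downward.

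The soc1-2 values have no replicate of their own. For AT3G28220 the difference of 0.80 exceeded the SD of the 3 soc1-101D differences (0.47) and was less than the SD of the Col arrays on the log2 scale (1.68). The soc1-2 signal of AT3G28220 lay inside the Col range and above every soc1-101D array. For AT4G01390 the difference was less than both spreads (0.96 and 0.74), and the soc1-2 signal lay between the lowest Col array and the highest soc1-101D array. In the fit, which also draws on soc1-101D of experiment 3, the soc1-2 coefficients were 0.59 ± 0.31 for AT3G28220 and 0.22 ± 0.50 for AT4G01390 (limma SE), so the fitted and the plain value of AT4G01390 differed in sign. Both mutants are set against the same Col array in experiment 3.

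Set against each other within experiment 3, the 2 mutants differed widely. Nothing is read from the size of this gap, since both genes were chosen for a low soc1-101D signal. The soc1-2 array read 10.1 times the soc1-101D array for AT3G28220 and 37.2 times for AT4G01390, and the second ratio rests on a soc1-101D signal under the pseudocount. For AT3G28220 the order in experiment 3 was soc1-2, then Col, then soc1-101D. For AT4G01390 it was Col, then soc1-2, then soc1-101D. In both genes soc1-2 and Col differed by less than the SD of the Col arrays on the log2 scale. The difference was 0.80 against an SD of 1.68 for AT3G28220, and −0.19 against an SD of 0.74 for AT4G01390.

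**Figure D2:**
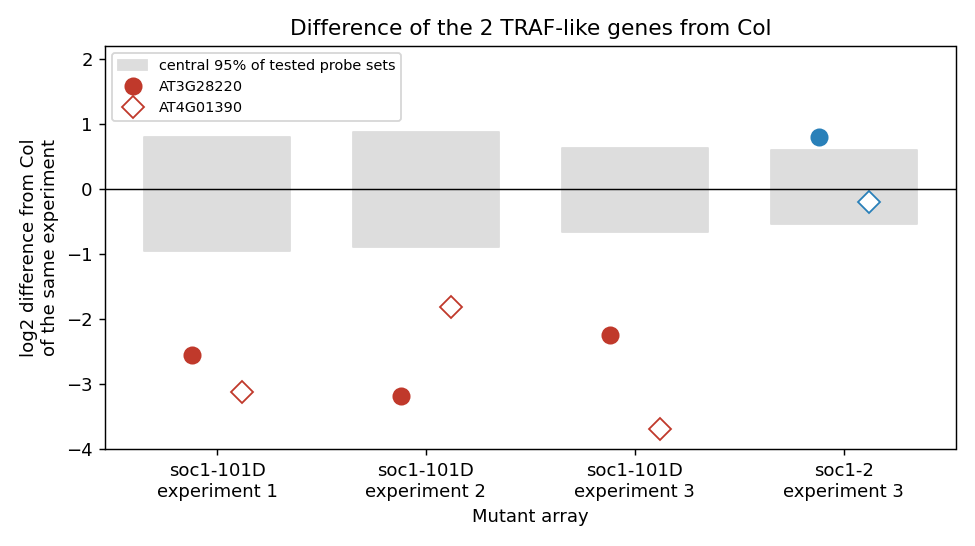
Log2 difference from Col of the same experiment for AT3G28220 (filled circles) and AT4G01390 (open diamonds) on the 3 soc1-101D arrays and the soc1-2 array; grey bars span the central 95% of the 13648 probe sets tested. All 6 soc1-101D values lie below the bars, the soc1-2 value of AT3G28220 (0.80) lies above its bar and that of AT4G01390 (−0.19) inside it. Both genes were chosen for a low soc1-101D signal, and AT3G28220 was known to lie above Col in soc1-2. Nothing is read from the points outside the bars.

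The level of both genes also depended on the experiment, a measure that did not enter their choice. AT3G28220 was low in experiment 3 in both genotypes. Its log2 signal there was lower than in experiment 1 by 2.80 ± 0.24 (limma SE; coefficient −2.80, adjusted p = 0.000266) and lower than in experiment 2 by 2.41 ± 0.24 (coefficient −2.41, adjusted p = 0.00265). Experiments 2 and 1 differed by −0.39 ± 0.24, which did not pass (limma adjusted p = 0.255). The drop from experiment 1 to experiment 3 was −2.64 in soc1-101D and −2.95 in Col, about as wide as the difference between the genotypes.

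AT4G01390 followed another order and was brightest in experiment 2 in both genotypes. Its log2 signal was 1.57 ± 0.39 higher in experiment 2 than in experiment 1 (limma adjusted p = 0.0191). Experiment 3 was at −2.40 ± 0.39 against experiment 2 (limma adjusted p = 0.00875). Against experiment 1 it was at −0.82 ± 0.39, which did not pass (limma adjusted p = 0.127). Without experiment 2 that same difference passed (limma adjusted p = 0.00801). The step from experiment 2 to experiment 3 was −3.33 in soc1-101D and −1.46 in Col. The soc1-101D signal of experiment 3 lay below the pseudocount, so the size of these experiment differences depends on it. From the lowest to the highest experiment, AT4G01390 differed by 1.64 with 4 times the pseudocount and by 2.70 with 0.5 times. It passed the limma F test over the experiments in both settings.

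Over the 3 experiments together, both genes passed the limma F test (adjusted p = 0.000412 for AT3G28220 and 0.00575 for AT4G01390). That call was common, since 51.6% of the probe sets tested passed it. The single contrasts passed for 32.6% (experiment 2 against 1), 40.1% (3 against 1) and 24.5% (3 against 2). The span from the lowest to the highest experiment was 2.80 for AT3G28220 and 2.40 for AT4G01390 on the log2 scale, where the median probe set spanned 0.69 and the 95th percentile was 1.89. These spans were in places 207 and 336 from the top. With no filter on dim probe sets AT4G01390 did not pass (limma adjusted p = 0.068).

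The 2 genes were alike across arrays but were not each other's nearest match. Their log2 signals correlated at r = 0.81 over the 7 arrays (rho 0.79), which share experiments and a genotype contrast on which both were chosen. With the mean of each experiment taken out, r was 0.93. That step leaves mainly the genotype contrast on which both genes were chosen, so nothing is read from the higher r. Among 13647 other probe sets, AT4G01390 was in place 196 by likeness to AT3G28220, and AT3G28220 in place 125 by likeness to AT4G01390. With experiment means taken out these places were 406 and 281, so more probe sets were closer to each member than the other member was. There were 52 probe sets (0.381%) at r of at least 0.9 with AT3G28220 and 23 (0.169%) with AT4G01390. The 8 most similar named genes of one shared 0 genes with those of the other. Nothing is read from this, since each list holds only 8 of 7275 named probe sets.

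The 8 named genes most like AT3G28220 had r of 0.96 to 0.99. The closest was the peroxidase gene AT5G51890 (r = 0.99), followed by AT4G32870, DI19, a zinc finger gene first found as drought-induced, AT4G13270, AT2G23780 and AT4G38350. The lectin gene AT1G52000 and AT3G10770 completed the list. AT5G51890 read 988, 954 and 727 in soc1-101D of experiments 1, 2 and 3, 1124 in soc1-2, and 1476, 1399 and 913 in Col. It had the shape of AT3G28220 at a smaller size, including the lower experiment 3 and a soc1-2 signal above Col of that experiment. Nothing is read from this shape, since AT5G51890 was picked by likeness over these arrays. Its log2 difference in soc1-101D was −0.48 ± 0.15 (limma SE). Likeness includes the soc1-101D contrast itself, so the soc1-101D differences of genes chosen by it are a description with no test.

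Of the 8, AT1G52000 came closest to AT3G28220 in size. It read 345, 228 and 149 in soc1-101D of experiments 1, 2 and 3, 493 in soc1-2, and 1678, 942 and 426 in Col. Its log2 difference in soc1-101D was −1.86 ± 0.19, and its soc1-2 array was higher than Col by 0.20. The other 7 genes of this list had log2 differences of −0.20 to −0.53 in soc1-101D. The most opposite genes were SK18, a gene of the SKP1-like family of ubiquitin ligase adaptors (r = −0.98), AT5G45670 and the transporter gene AT5G17700. SK18 read 371, 382 and 598 in soc1-101D, 375 in soc1-2, and 243, 256 and 417 in Col.

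The 8 named genes most like AT4G01390 had r of 0.93 to 0.98. They were PGRL1B, which acts in cyclic electron flow of photosynthesis, AT1G52320, AT1G70180, AT5G44400, AT2G38800, AT4G11190, AT4G10390 and AT1G31710. PGRL1B was the closest (r = 0.98) and moved little, with 707, 911 and 644 in soc1-101D, 859 in soc1-2, and 927, 974 and 894 in Col. The dirigent gene AT4G11190 had a log2 difference of −1.11 ± 0.14 in soc1-101D, and the copper amine oxidase gene AT1G31710 one of −1.05 ± 0.14. Both were brightest in experiment 2, as AT4G01390 was, and nothing is read from this, since both were picked by likeness over these arrays.

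Among these 8 genes AT5G44400, of the berberine bridge enzyme family, came nearest to AT4G01390 in the size of its soc1-101D difference. It read 146, 393 and 37.9 in soc1-101D of experiments 1, 2 and 3, 849 in soc1-2, and 513, 1057 and 944 in Col. All soc1-101D arrays lay below all Col arrays, and soc1-101D of experiment 3 was the lowest of all, as for AT4G01390. Nothing is read from this, since AT5G44400 was picked by likeness over these arrays. Its log2 difference was −2.38 ± 0.46. The most opposite genes were AT1G11200, the cytochrome P450 gene CYP71B24 (r = −0.93) and AT4G29030. CYP71B24 read 239, 182 and 321 in soc1-101D, 95.8 in soc1-2, and 63.1, 48.6 and 120 in Col.

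**Figure D3:**
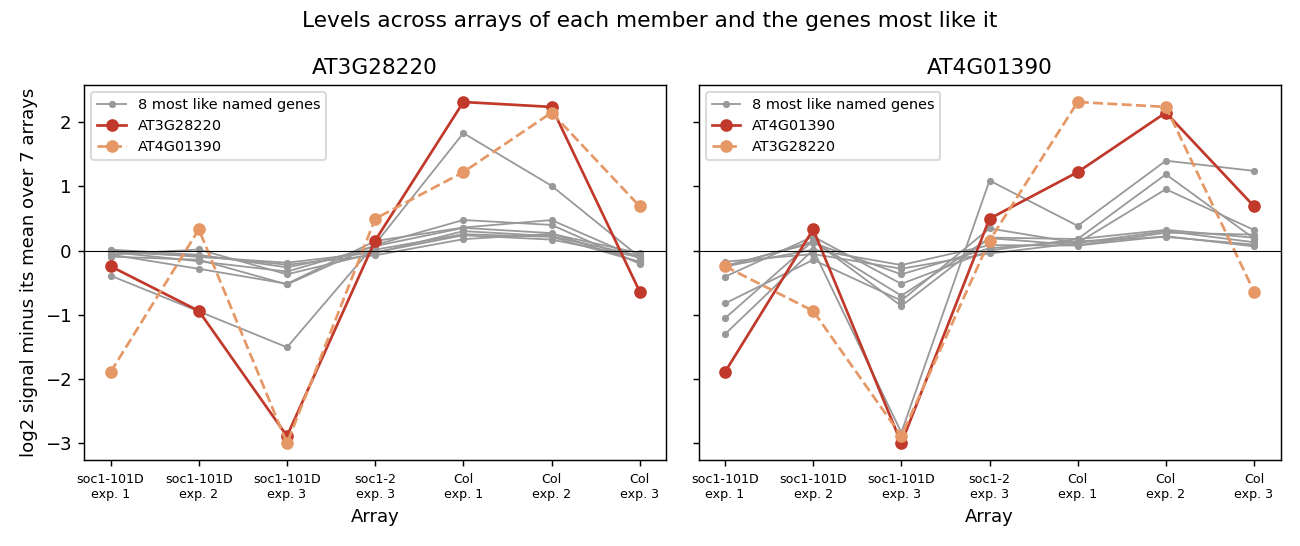
Log2 signal minus its mean over the 7 arrays (y axis) on each array (x axis) for AT3G28220 (left, solid) and AT4G01390 (right, solid), the other member (dashed) and the 8 named genes most like each (grey). Picked for likeness over these arrays, most grey lines have the shape of the member at a smaller size. AT1G52000 on the left and AT5G44400 on the right are the widest of the grey lines.

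The remaining TRAF-like and MATH genes were examined for a difference of their own. The list held 72 loci written down from general knowledge of the family, of which 23 had a probe set with a single gene name and 13 were bright enough to be tested. None of the 13 passed in soc1-101D in either direction (limma, 1 at an unadjusted p under 0.05), where 0.542% of all probe sets passed. Over all 13648 probe sets tested, 1504 had an unadjusted p under 0.05. Nothing is read from these counts, since 13 genes are too few to set against those shares. Their median log2 difference was −0.15, from −0.41 to 0.11, against −0.02 over all probe sets tested, and 9 of the 13 lay below 0. On the soc1-2 array their median difference was −0.08, from −0.35 to 0.53, against −0.02, with 0 of 13 at least 2-fold changed.

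The lowest value in soc1-101D belonged to ZW9 (AT1G58270), a TRAF-like gene. It read 4110, 5498 and 3536 in soc1-101D of experiments 1, 2 and 3, 4277 in soc1-2, and 6155, 7406 and 4117 in Col. Each soc1-101D array was below its Col array, with a mean log2 difference of −0.41 ± 0.15 (limma adjusted p = 0.363). AT5G26260 had a log2 difference of −0.38 ± 0.22, with 923, 1379 and 756 in soc1-101D, 1055 in soc1-2, and 994, 2894 and 739 in Col. Its difference rested on experiment 2, where Col was high. AT4G00780 and AT1G65370 had log2 differences of −0.23 ± 0.17 and −0.19 ± 0.16.

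The genes with a known part in ubiquitin pathways and immunity lay closer to 0 than ZW9 in soc1-101D, as did the other plain TRAF-like genes tested. Nothing is read from this, since ZW9 had the widest difference of all family genes tested. The MUSE genes AT5G43560 and AT1G04300 had log2 differences of −0.17 ± 0.15 and −0.16 ± 0.14 in soc1-101D, and −0.22 and −0.18 in soc1-2. The 4 SINA-type genes ranged from −0.15 to 0.11 in soc1-101D and from −0.35 to 0.02 in soc1-2. BPM3, the single MATH-BTB adaptor gene tested, had a log2 difference of −0.06 ± 0.16 in soc1-101D. None of these 7 passed the limma test in soc1-101D, and their smallest adjusted p was 0.756.

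Dependence on the experiment was found in 6 of the 13 genes (limma F test, adjusted p under 0.05), a share near the 51.6% of all probe sets. Of the 6, 5 were plain TRAF-like genes and 1 was a SINA-type gene. The widest span among the 13 was 1.40 on the log2 scale, less than the spans of AT3G28220 and AT4G01390. The 10 family genes too dim to be tested, all plain TRAF-like genes, had scaled signals of 0.85 to 149.7 over all arrays.

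**Figure D4:**
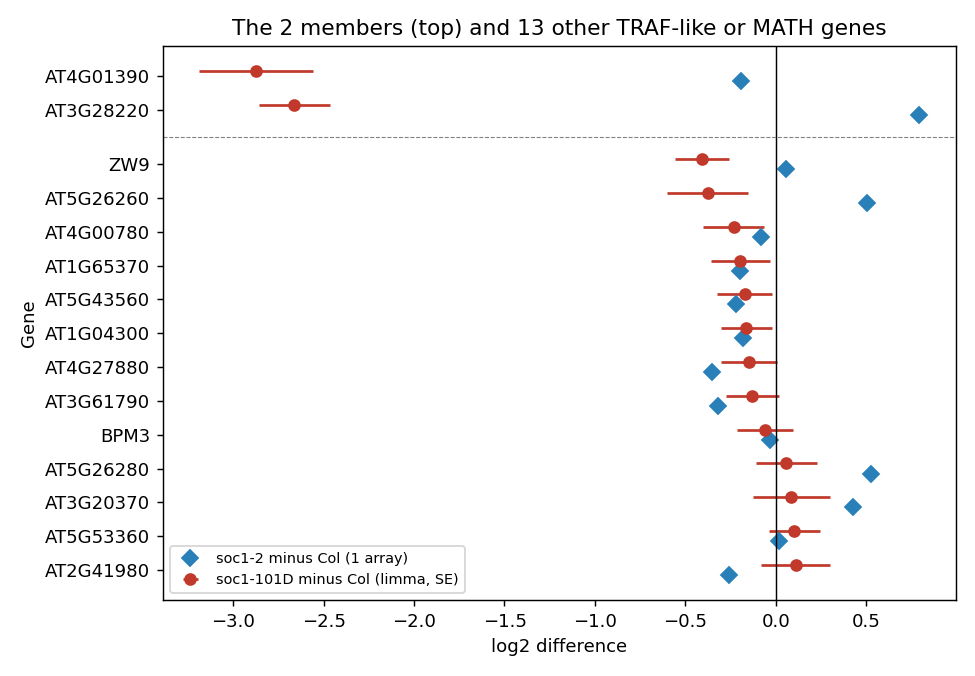
Log2 difference (x axis) from Col in soc1-101D (red circles, limma coefficient with its SE) and in soc1-2 (blue diamonds, 1 array against Col of experiment 3) for AT4G01390 and AT3G28220, above the dashed line, and the 13 other TRAF-like or MATH genes tested, below it. The red circles of the 13 lie between −0.41 and 0.11, those of the 2 members at −2.87 and −2.66. The 2 members were chosen for a low soc1-101D signal and the 13 by family, so nothing is read from this gap.

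Genes next to the 2 loci were examined in the gene order of the RefSeq annotation TAIR10.1, up to 10 places on each side. Of these 40 neighbours, 16 had a named probe set and 7 were bright enough to be tested. None of the 7 passed in soc1-101D (limma, 1 at an unadjusted p under 0.05), where 0.542% of all probe sets passed. An unadjusted p under 0.05 was seen for 1504 of the 13648 probe sets tested. Nothing is read from these counts, since 7 genes are too few to set against those shares. Their median log2 difference was −0.12, against −0.02 over all probe sets tested.

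Around AT4G01390 the 4 tested neighbours ranged from −0.15 to 0.18. The gene after it, AT4G01395, read 323, 356 and 560 in soc1-101D of experiments 1, 2 and 3, 541 in soc1-2, and 413, 361 and 604 in Col. Its log2 difference was −0.15 ± 0.15, which did not pass (limma adjusted p = 0.784). Its signal was highest in experiment 3, where that of AT4G01390 was lowest. AT4G01380, the gene before it, was too dim to be tested.

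Around AT3G28220 the nearest tested gene was AT3G28200, 3 places before it, with a log2 difference of −0.15 ± 0.15. On the other side AT3G28230 was too dim to be tested. AT3G28270, 7 places after AT3G28220, was singled out after its values were seen. It read 712, 48.8 and 263 in soc1-101D of experiments 1, 2 and 3, 320 in soc1-2, and 4677, 271 and 279 in Col. Its log2 differences were −2.68, −2.09 and −0.08, so it was far below Col in experiments 1 and 2 and near Col in experiment 3. The mean was −1.62 ± 0.43 (limma adjusted p = 0.194). Without experiment 3 it was −2.39 ± 0.23 and passed (limma adjusted p = 0.00379), where 0.542% of the probe sets tested fell. No neighbour passed without experiment 1 or without experiment 2. Nothing is read from the pass of AT3G28270, since the experiment left out is the one where it lay near Col. Its experiments differed by 3.72 on the log2 scale, and unlike AT3G28220 its Col signal was low in experiment 2.

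**Figure D5:**
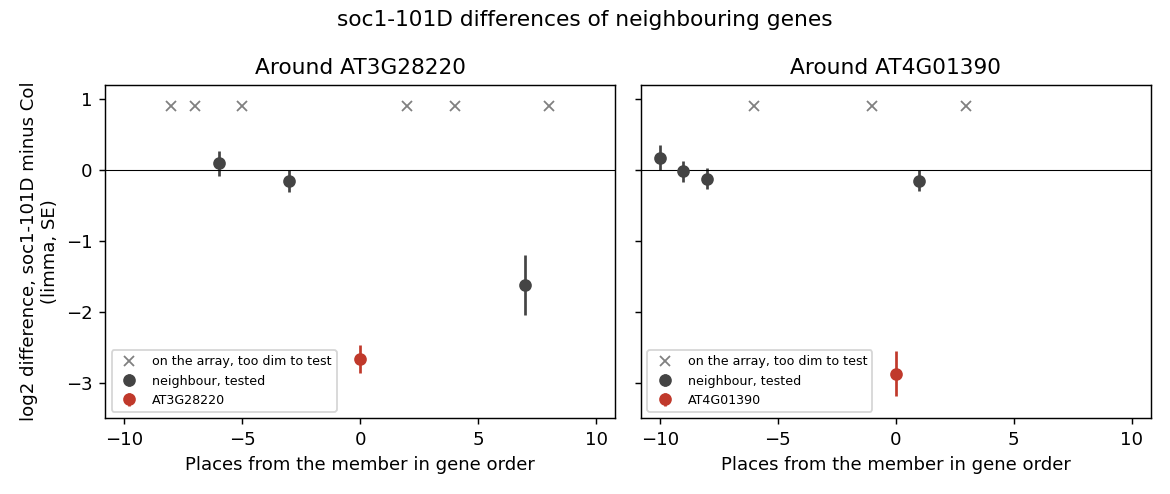
Log2 difference of soc1-101D from Col (y axis, limma coefficient with its SE) by place in gene order (x axis, member at 0) around AT3G28220 (left) and AT4G01390 (right); crosses at the top mark genes on the array too dim to test. Of the 7 tested neighbours, AT3G28270 (−1.62) is the one far from 0.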

How the data were processed

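The 7 one-colour arrays had total RNA as the sample molecule and biotin as the label. The authors deposited an intensity for every probe set of every array, not log-transformed, and no source used here names the software. Trimmed means (2%) of the deposited intensity lay between 495.5 and 496.2, as after scaling to a shared target.

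All arrays were brought to a median of 192.7, and log2 was taken after adding a pseudocount of 19.3 (0.1 times that median). The dimmest 40% of probe sets by mean log2 value were dropped, which left 13648. Genotype and experiment were terms of a linear model (lmFit and eBayes of limma 3.58.1, R 4.3.3). Benjamini-Hochberg adjustment ran over all 13648, with calls at an adjusted p under 0.05. The steps were tested on simulated data.

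The experiment was kept as a block because the labels set each mutant array against the Col array that has its number. Deviations from group means correlated between soc1-101D and Col arrays of 1 experiment at r = 0.85, 0.74 and 0.82.

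The members and the gene lists were chosen with earlier results of these data known. The rule for other named genes took the 8 named genes with the highest and the 3 with the lowest correlation to each member, the 6 family genes with the widest soc1-101D difference and any that were called, and the nearest neighbours on the array. After the table could be read, 3 loci of uncertain family were taken off the family list. Gene names came from platform annotation, updated through RefSeq TAIR10.1: 13513 probe sets had 1 gene, 503 several and 8730 none. Alternatives changed the scaling, pseudocount, filter, block, likeness measure and experiments used.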

Additional observations from a re-analysis of the deposited data

How the results depend on the processing

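The soc1-101D and soc1-2 differences of AT3G28220 and AT4G01390 kept their sign in every alternative that gave them. The soc1-101D differences moved by less than their SD over the 3 experiments (0.47 and 0.96). The soc1-2 differences moved by less than the SD of the Col arrays (1.68 and 0.74), which exceeds those differences themselves. Some settings could not move them. The filter and the block leave these values as they are, and the soc1-2 differences use arrays of experiment 3 alone. The soc1-101D difference ran from −2.87 to −2.39 for AT3G28220 and from −3.40 to −2.05 for AT4G01390, and the soc1-2 difference from 0.72 to 0.81 and from −0.20 to −0.16. No replicate block left both soc1-101D differences at −2.66 and −2.87, and limma then called 0 probe sets (222 at an unadjusted p under 0.05). With no filter on dim probe sets limma called 0 in soc1-101D (1714 unadjusted) and 2317 for the experiment, and the experiment span of AT4G01390, 2.40, did not pass (adjusted p = 0.068). In soc1-101D, quantile normalization gave 19 calls and 4 times the pseudocount 159, against 74. Leaving out 1 experiment gave 16 to 153 calls in soc1-101D (16 without experiment 1, 119 without experiment 2, 153 without experiment 3), 3462 to 6205 for the experiment, and 0 to 1 among the neighbours. It gave an experiment span of 0.39 to 2.80 for AT3G28220, the lowest between experiments 1 and 2 alone (adjusted p = 0.241). For AT4G01390 the span was 0.82 to 2.40, with 0.82 without experiment 2 (adjusted p = 0.00801) and 1.57 without experiment 3 (adjusted p = 0.00472). The correlation between the 2 genes was 0.72 to 0.93. That correlation was 0.93 with experiment means taken out, which leaves mainly the genotype contrast on which both genes were chosen. The family list had 0 calls under all 9 alternatives. Signals near the pseudocount limit the size of the AT4G01390 difference, and a single array limits soc1-2.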
